A study of Mus musculus with 15 samples.

Results

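Gene expression after joint destabilization was compared with sham surgery across both genotypes of the study, using 10 libraries of operated bone against 5 sham libraries out of 15 in all. Each library came from tibial subchondral bone, which lies directly beneath the joint cartilage. The growth protocol describes the wild-type mice as male C57BL/6J, and the titles of the sham samples give C57BL/6. The protocol gives the age of the mice as 8 weeks, without saying at which step, and the bone was collected 8 weeks after surgery. Destabilization of the medial meniscus (DMM) cuts the ligament that ties the medial meniscus to the tibia, whereas sham surgery opened the joint capsule and left the ligament intact. The 5 sham mice and 5 of the DMM mice were wild-type. The other 5 DMM mice carried Dmp1-Cre and floxed Pvalb alleles (Pvalb cKO), a deletion driven by the Dmp1 promoter, which is active in osteocytes and in late osteoblasts. Knockout mice with sham surgery were not analysed here, so in the knockout bones the genotype and the surgery cannot be told apart. The labels call the samples biological replicates. Libraries were grouped by surgery and not by genotype, a choice made with earlier results of these data known. A response was called shared where all 10 DMM values lay on one side of all 5 sham values.

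DMM is a standard mouse model of osteoarthritis. The unstable meniscus shifts load onto the medial tibial plateau, and over weeks the cartilage erodes, the bone beneath it thickens and bony outgrowths form at the joint margin. Bone remodels through osteoclasts, which resorb it, and osteoblasts, which lay down collagen-rich matrix. Cytokines such as oncostatin M, interleukin 1 beta and tumour necrosis factor, made largely by marrow and synovial immune cells, act on both cell types. Ground subchondral bone also holds marrow, vessels and attached soft tissue.

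Promoter sequences are shown for 3 signalling genes with no overlap between the DMM and sham libraries: Tnf, which was lower after DMM, and Il1b and Dusp1, which were higher. Each runs from 250 bases before to 50 bases after the annotated start, on the minus strand, as given by RefSeq for GRCm38.p6. That build differs from the GRCm39 build in the submitters' processing notes, so no other coordinates are printed. Capitals mark every match, on either strand, to an AP-1 site (TGANTCA), a cAMP response element (TGACGTCA) or a TATA box (TATAAA). The windows are chr17:35201958-35202257 for Tnf, chr2:129371090-129371389 for Il1b and chr17:26508423-26508722 for Dusp1.

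Tnf: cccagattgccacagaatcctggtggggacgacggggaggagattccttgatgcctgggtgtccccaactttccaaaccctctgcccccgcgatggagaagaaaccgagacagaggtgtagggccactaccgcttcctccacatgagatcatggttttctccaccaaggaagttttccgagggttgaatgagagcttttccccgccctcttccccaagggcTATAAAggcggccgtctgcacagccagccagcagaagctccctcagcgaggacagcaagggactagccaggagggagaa

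Il1b: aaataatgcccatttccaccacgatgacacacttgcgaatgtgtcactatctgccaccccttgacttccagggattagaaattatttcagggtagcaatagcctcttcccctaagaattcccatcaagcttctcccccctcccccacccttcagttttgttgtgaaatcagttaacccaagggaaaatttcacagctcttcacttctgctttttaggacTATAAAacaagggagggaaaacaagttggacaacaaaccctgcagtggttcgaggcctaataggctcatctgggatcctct

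Dusp1: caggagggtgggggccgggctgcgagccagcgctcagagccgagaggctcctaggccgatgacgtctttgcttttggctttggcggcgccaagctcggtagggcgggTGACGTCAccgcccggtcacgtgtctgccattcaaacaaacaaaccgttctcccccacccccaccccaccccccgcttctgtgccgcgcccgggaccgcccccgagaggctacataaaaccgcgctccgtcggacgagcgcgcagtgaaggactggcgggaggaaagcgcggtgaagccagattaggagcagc

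The Tnf and Il1b windows each held 1 TATA box, a motif present in 13.6% of 32851 promoter windows of this length. The Dusp1 window held 1 cAMP response element, present in 1.79% of them. None of the 3 windows held the AP-1 letters, present in 7.81%. Both cytokine windows, that of the gene lower and that of the gene higher after DMM, thus held the same motif of the 3 searched.

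Values were FPKM, fragment counts scaled to transcript length and sequencing depth, as deposited by the authors. Library sums ran from 375453 to 468423. The absolute depth was unknown, but the steps between low values put the deepest library at 1.65 times the shallowest, knockout replicate 2. At least 1 FPKM was reached by 12592 to 13510 gene IDs per library. Bone markers were present throughout: across the 15 libraries Bglap (osteocalcin) ran from 319 to 904 FPKM, Sost (sclerostin, an osteocyte product) from 12.6 to 35.8 and Ctsk (cathepsin K of osteoclasts) from 158 to 592. Marrow RNA was abundant, the 14 erythroid genes summing to between 40320 and 144700 FPKM. Wild-type DMM replicate 3 and knockout replicates 1 and 4 stood apart on the first principal component, at scores of 46.2, 34.3 and 32.1, while the other 12 libraries lay between -20 and 0.99. No sham library was among the 3.

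Pvalb, the targeted gene, encodes parvalbumin, a calcium buffer abundant in fast skeletal muscle. It was 71.3, 490, 300, 15.8 and 402 FPKM in sham replicates 1 to 5. In the 10 DMM libraries it ran from 23.7 to 375 FPKM with a median of 91.8, and the lowest of these was a knockout library and the highest a wild-type one. The sham and DMM ranges overlapped in full. The log2 difference, DMM minus sham, was -0.88 (SE 0.81, limma adjusted p = 0.63), with an exact two-sided permutation p of 0.318. The 5 knockout values overlapped those of both wild-type groups, in whole tissue that also held fast muscle RNA, described further on.

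Operated bone of both genotypes carried more transcript of the cytokine Osm and less of the cytokine Tnf and of Mllt3 than sham bone. Each of these 3 genes differed by 1.8 to 1.9 times between the group means, and in each the 10 DMM libraries and the 5 sham libraries did not overlap. In all, 13653 genes had at least 1 FPKM in at least 5 libraries. Of these, 5 rose (0.0366%) and 2 fell (0.0146%) after DMM at a limma adjusted p under 0.05 in the contrast of the mean of both DMM groups with sham, on log2(FPKM + 1). Without a correction for the number of genes, 866 (6.34%) were higher and 411 (3.01%) lower at p under 0.05. The 7 genes past the threshold were Osm, the loci Gm26917, Gm45222, Gm48780 and AC117239.2, and, lower, Tnf and Mllt3. In wild-type DMM bones alone against sham, 0 genes passed it. The 4 loci were named after their values were seen. The count of genes that rose was 0 without sham replicate 2 or 5 and 34 without knockout replicate 2, and the count of genes that fell was 0 without sham replicate 2, 3 or 5.

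Osm encodes oncostatin M, a cytokine of the interleukin 6 family released by macrophages and neutrophils, which signals to cells of the osteoblast lineage. Osm (ENSMUSG00000058755) was 6.52, 4.98, 6.26, 6.34 and 6.28 FPKM in sham replicates 1 to 5. After DMM the 5 wild-type replicates had 7.55, 9.12, 10.8, 11 and 10.9 FPKM, and the 5 knockout replicates 16.7, 11.3, 11.1, 11.8 and 16.5 FPKM. Every DMM library lay above the highest sham library, and every knockout library lay above every wild-type DMM library. The mean was 11.7 ± 2.87 FPKM (SD, n = 10) after DMM and 6.07 ± 0.619 (n = 5) after sham surgery, a ratio of 1.92. The log2 difference was 0.81 (SE 0.11, limma adjusted p = 0.0181). Against the same 5 sham libraries it was 0.61 in wild-type (limma adjusted p = 0.216) and 1.02 in knockout bones (adjusted p = 0.011). The difference between the genotypes after DMM was 0.40 on the log2 scale, with an unadjusted p of 0.00791 and a limma adjusted p of 0.935, so it was not called. As in all bulk tissue, more cells that make Osm and more Osm RNA per cell cannot be told apart. The call was lost with the 10 DMM libraries fitted as 1 group (limma adjusted p = 0.0807) and without sham replicate 2, 3 or 5. It was also lost with a block on the replicate numbers (limma adjusted p = 0.0776). Without the 3 libraries that stood apart the difference was 0.77 (limma adjusted p = 0.0451).

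Tnf encodes tumour necrosis factor, a cytokine that promotes osteoclast formation. Tnf (ENSMUSG00000024401) was 3.77, 4.55, 5.38, 4.77 and 4.42 FPKM in sham replicates 1 to 5. After DMM the wild-type replicates 1 to 5 had 1.85, 2.32, 3.05, 2.87 and 2.67 FPKM and the knockout replicates 1 to 5 had 2.97, 2.31, 2.3, 2.93 and 1.99 FPKM. Every DMM library lay below the lowest sham library, and the DMM genotypes covered much the same range. The mean was 2.53 ± 0.428 FPKM (SD, n = 10) against 4.58 ± 0.582 (n = 5), so that the sham mean was 1.81 times the DMM mean. The log2 difference was -0.67 (SE 0.10, limma adjusted p = 0.0195). Against the shared sham libraries it was -0.66 in wild-type (limma adjusted p = 0.142) and -0.68 in knockout bones (adjusted p = 0.0575). The call was lost without sham replicate 2, 3, 4 or 5 and with a block on the replicate numbers (limma adjusted p = 0.0776). Without the 3 libraries that stood apart the difference was -0.75 (limma adjusted p = 0.0134).

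Mllt3 encodes AF9, a chromatin reader of the super elongation complex that is active in blood stem cells. Mllt3 (ENSMUSG00000028496) was 4.11, 3.33, 4.24, 3.33 and 4.24 FPKM in sham replicates 1 to 5. After DMM the wild-type replicates 1 to 5 had 2.3, 2.38, 1.69, 1.89 and 2.13 FPKM and the knockout replicates 1 to 5 had 1.27, 2.37, 1.99, 2.14 and 2.53 FPKM. The highest DMM value lay well under the lowest sham value. The log2 difference was -0.67 (SE 0.10, limma adjusted p = 0.0195), with -0.66 in wild-type and -0.67 in knockout bones, and the sham mean was 1.86 times the DMM mean. The call was lost without sham replicate 1, 2, 3 or 5 and without wild-type DMM replicate 4 or 5. It was also lost with a block on the replicate numbers (limma adjusted p = 0.133). Without the 3 libraries that stood apart the difference was -0.58 (limma adjusted p = 0.0223).

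**Figure D1:**
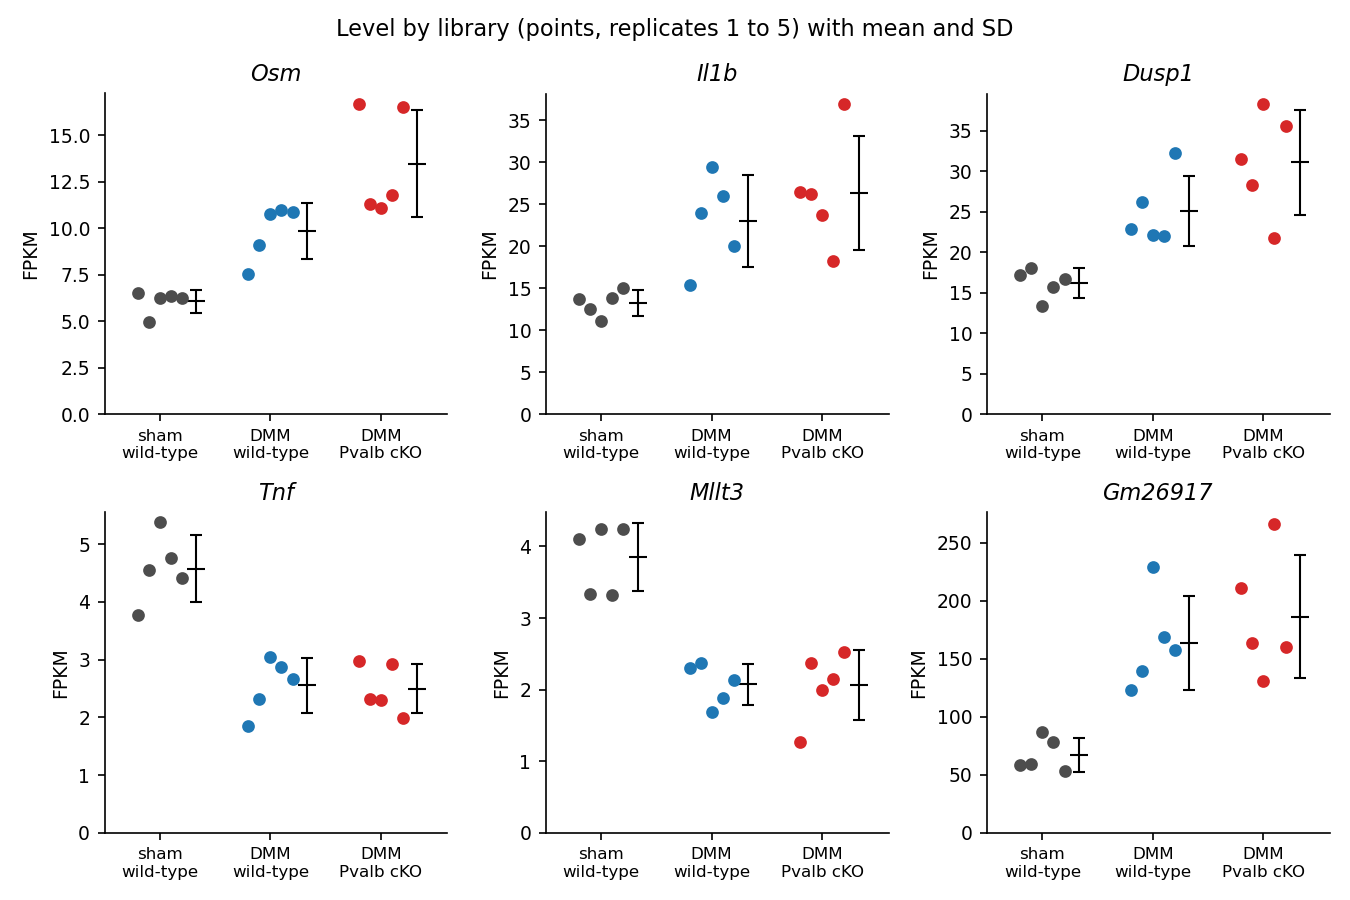
FPKM of Osm, Il1b, Dusp1, Tnf, Mllt3 and Gm26917 in each library, by group (points, replicates 1 to 5, left to right), with the mean and SD of each group of 5 beside the points. In every panel the points of both DMM groups lie on one side of the sham points; the Tnf values run from 1.85 to 3.05 after DMM and from 3.77 to 5.38 after sham surgery.

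The loci that rose were transcripts of unknown function. Gm26917 (ENSMUSG00000097971), a long non-coding RNA gene, was 58.1, 59.3, 86.9, 78.3 and 53.1 FPKM in sham replicates 1 to 5. In the 10 DMM libraries it ran from 123 to 266 FPKM with a median of 162, so no DMM library reached down to the sham range. The log2 difference was 1.35 (SE 0.18, limma adjusted p = 0.0138), with 1.27 in wild-type and 1.44 in knockout bones against the shared sham libraries. In the GENCODE M21 annotation it lies beside an rRNA gene and the loci Gm42418 and AY036118, and reads of such repeated sequence may be shared. Gm42418 had a log2 difference of 0.75 (limma adjusted p = 0.192) and AY036118 one of 0.21 (adjusted p = 0.566), and DMM and sham libraries overlapped in both. The Gm26917 call was lost without sham replicate 2 or 5 and with a block on the replicate numbers.

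Gm45222 (ENSMUSG00000109498) ran from 0.588 to 0.91 FPKM in sham libraries and from 1.11 to 1.7 after DMM, and Gm48780 (ENSMUSG00000111929) from 0.604 to 0.835 and from 1.1 to 1.71. Neither overlapped between the sides. Both stayed under 1 FPKM in every sham library, so they passed the expression filter through DMM libraries alone. Their log2 differences were 0.42 (SE 0.06, limma adjusted p = 0.0195) and 0.45 (SE 0.07, adjusted p = 0.0237). In the same annotation Gm45222 lies within Picalm on the same strand, and Gm48780 overlaps Arg2 on the opposite strand. Picalm and Arg2 had log2 differences of -0.22 (limma adjusted p = 0.571) and 0.05 (adjusted p = 0.882), and both overlapped between the sides. No source used here states whether the counting used strand, so the reads of these loci and of their hosts may be mixed. With 1 library left out at a time, Gm45222 passed the threshold in 8 of 15 fits and Gm48780 in 6 of 15.

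AC117239.2 (ENSMUSG00000117621), a locus that overlaps Commd10 on the same strand in the same annotation, passed the test of all DMM against sham without being shared by the genotypes. It was 0.857 to 1.58 FPKM in sham, 1.01 to 2 in wild-type DMM and 5.29 to 9.26 in knockout DMM libraries. The knockout libraries lay above all others, and the wild-type DMM range overlapped the sham range. Knockout minus wild-type after DMM, the log2 difference was 1.63 (limma adjusted p = 0.000135), and it was the 1 gene of 13653 (0.00732%) called in that contrast. Its pooled log2 difference of 0.92 (limma adjusted p = 0.0138) was 0.11 in wild-type and 1.74 in knockout bones.

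All 10 DMM libraries lay above all 5 sham libraries for 34 genes (0.249% of those tested) and below them for 11 (0.0806%). The filter asked for 1 FPKM in 5 of 15 libraries. Crabp2, Prrx2, P4ha3, Gm45222 and Gm48780 stayed under 1 FPKM in every sham library and passed it through DMM libraries alone. A gene under 1 FPKM in all DMM libraries needed all 5 sham libraries to pass. The counts of the 2 directions are therefore not on an equal footing, and the lower count grew with no filter, as given further on. The 34 include genes of mesenchymal and matrix-forming cells, such as Crabp2, Prrx2, P4ha3, Mfap2 and Thy1, and genes of inflammation and stress signalling, such as Osm, Il1b, Lbp and Dusp1. The 11 include Ms4a2, Rab44, Adgre4 and Il2rb, known from mast cells, macrophages and lymphocytes. Of the 45 genes, 6 passed the limma threshold, and 9 belong to the gene lists described below. For 2 of the 45 the genotypes differed after DMM at an unadjusted p under 0.05, and for 0 at an adjusted one. Over all 13653 genes, 151 were higher and 293 lower in knockout bones at that unadjusted p, and 1 was called. The 45 are thus not set apart by this count. Dividing FPKM by median-of-ratios factors changed the split to 21 higher and 17 lower, that is from 75.6% to 55.3% higher. Without the 3 libraries that stood apart the counts were 61 higher and 20 lower. Without sham replicate 5 they were 126 and 34, and without sham replicate 3 they were 64 and 39.

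Crabp2, a binding protein that carries retinoic acid to its nuclear receptor, had the largest difference among the named genes without overlap. It was 0.0495, 0.179, 0.0952, 0.155 and 0.24 FPKM in sham replicates 1 to 5 and ran from 0.374 to 5.84 with a median of 2.07 in the 10 DMM libraries. Sham values were close to 0, and the lowest DMM value was that of knockout replicate 2. The ratio of means was 18.5 and the log2 difference 1.50 (SE 0.34, limma adjusted p = 0.159). Prrx2, a homeobox factor of limb and joint mesenchyme, was 0.255, 0.654, 0.517, 0.108 and 0.838 FPKM in sham libraries and 0.95 to 4.41 with a median of 1.9 after DMM. Its lowest DMM value was again that of knockout replicate 2. For Prrx2 the log2 difference was 1.11 (SE 0.24, limma adjusted p = 0.149). P4ha3, a catalytic subunit of the prolyl hydroxylase that stabilizes collagen helices, was 0.0625 to 0.378 FPKM in sham libraries and 0.476 to 3.87 after DMM (log2 difference 0.98, SE 0.23, limma adjusted p = 0.16). None of these 3 genes passed the threshold.

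Mfap2, a glycoprotein of elastic microfibrils, was 2.34, 4.15, 2.62, 1.53 and 3.78 FPKM in sham replicates 1 to 5 and 4.21 to 6.79 with a median of 5.69 after DMM. The sides were separated by a narrow gap, since sham replicate 2 came close to the lowest DMM library. Thy1, a surface protein of fibroblasts and T cells, was 3.65, 3.14, 3.64, 3.07 and 3.79 FPKM in sham libraries and 4.04 to 10 with a median of 6.15 after DMM. Here the 5 sham values lay close together and the DMM values spread widely above them. The log2 differences were 0.77 (SE 0.15, limma adjusted p = 0.117) for Mfap2 and 0.74 (SE 0.17, adjusted p = 0.159) for Thy1. Akr1b8, an aldo-keto reductase that detoxifies aldehydes, was 1.13 to 2.36 FPKM in sham and 2.5 to 6.3 in DMM libraries (log2 difference 0.88, limma adjusted p = 0.11).

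Il1b encodes interleukin 1 beta, a cytokine that drives cartilage breakdown and bone resorption. It was 13.8, 12.5, 11.1, 13.9 and 15.1 FPKM in sham replicates 1 to 5. After DMM the wild-type replicates 1 to 5 had 15.4, 23.9, 29.5, 26 and 20.1 FPKM and the knockout replicates 1 to 5 had 26.5, 26.2, 23.7, 18.3 and 36.9 FPKM. Wild-type DMM replicate 1 lay just above the highest sham library, and the other 9 lay clear of it. The ratio of means was 1.86 and the log2 difference 0.82 (SE 0.15, limma adjusted p = 0.11), with 0.73 in wild-type and 0.91 in knockout bones. Dusp1, a phosphatase that switches off MAP kinases, was 17.1, 18.1, 13.3, 15.7 and 16.7 FPKM in sham replicates 1 to 5 and 21.8 to 38.4 with a median of 27.3 after DMM. All 10 DMM values stood above the sham range. Its log2 difference of 0.74 (SE 0.12, limma adjusted p = 0.0548) lay just outside the threshold. Lbp, which hands bacterial lipopolysaccharide to its receptor, was 13.3 to 14.9 FPKM in sham and 18 to 30.3 in DMM libraries (log2 difference 0.59, SE 0.12, limma adjusted p = 0.135).

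**Figure D2:**
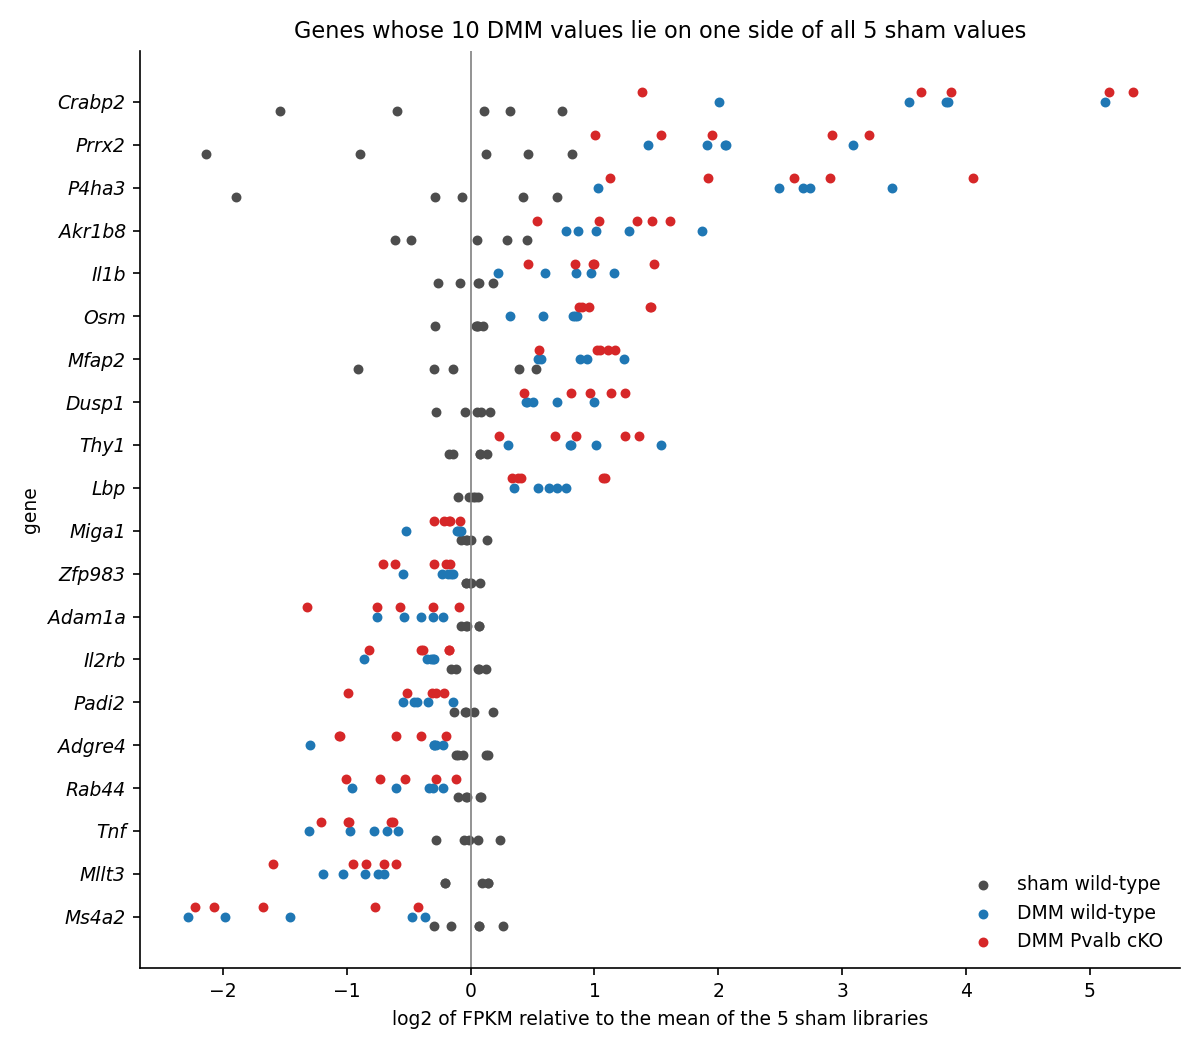
Level in each library, as log2 of FPKM relative to the mean of the 5 sham libraries, for the 10 named genes per direction with the largest difference among those whose 10 DMM values lie on one side of all sham values (grey, sham; blue, wild-type DMM; red, knockout DMM). The gap between the sides is widest for Crabp2 among the higher genes and for Mllt3 among the lower ones, and it is very narrow for Miga1, Padi2 and Il2rb.

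The other 20 named genes that were higher in all DMM libraries were named after their values were seen. They had log2 differences from 0.09 for Stx12, an endosomal syntaxin, to 0.58 for Lamb1, a laminin chain of basement membranes. Igfbp4, a secreted binding protein of insulin-like growth factors, was 81.4 to 88.8 FPKM in sham and 93.8 to 120 in DMM libraries (log2 difference 0.33, SE 0.07, limma adjusted p = 0.117). Tgfbi, a matrix protein induced by TGF-beta, was 40.8 to 45.2 FPKM in sham and 46.6 to 107 in DMM libraries (log2 difference 0.41, limma adjusted p = 0.423). Alg9, an enzyme of N-glycan assembly, was 2.66 to 4.61 FPKM in sham and 4.86 to 5.91 in DMM libraries (log2 difference 0.47, limma adjusted p = 0.11). Several others serve the secretory pathway: Emc3 and Sumf1 of the endoplasmic reticulum and Yif1a of its traffic to the Golgi, with log2 differences of 0.10, 0.14 and 0.25. Hilpda, a lipid droplet protein induced by hypoxia, had 0.41 and Csrp2, a LIM protein of smooth muscle and stellate cells, 0.53. The remaining ones were Dnajc25 (0.29), Ndrg4 (0.54), Fam171a2 (0.36), Fbxl6 (0.25), Ift74 (0.26), Rassf1 (0.26), Anxa7 (0.27), Mcub (0.37), Tbcb (0.36) and Mnat1 (0.17), all as log2 differences and all short of the threshold. With the 4 loci C230096K16Rik (0.34), Gm26917, Gm45222 and Gm48780 they complete the 34.

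Among genes below the sham range in all DMM libraries, Ms4a2 had the largest difference. It encodes the beta chain of the high-affinity IgE receptor, carried by mast cells and basophils. Ms4a2 was 6.35, 4.76, 5.57, 5.55 and 4.32 FPKM in sham replicates 1 to 5. After DMM the wild-type replicates 1 to 5 had 1.09, 4.11, 3.82, 1.93 and 1.34 FPKM and the knockout replicates 1 to 5 had 3.12, 1.66, 1.26, 3.96 and 1.14 FPKM. The highest DMM values came close to the lowest sham value, and 6 DMM libraries lay under 2 FPKM. The sham mean was 2.27 times the DMM mean, and the log2 difference was -0.998 (SE 0.24, limma adjusted p = 0.163). The mast cell list had 9 genes, of which 5 were tested. All 5 had lower means after DMM, with a median log2 difference of -0.21, and 0 passed the threshold. The list summed to 57.8 to 75.7 FPKM in sham and 37.7 to 71.2 in DMM libraries, of which 6 lay below the lowest sham library, and none of its genes was at 0 in every library. The mast cell proteases Mcpt4, Cma1, Tpsb2 and Tpsab1 stayed under the expression filter. The part of mast cell number in these differences was not tested. Cpa3, the mast cell carboxypeptidase, was 12.4 to 14.8 FPKM in sham and 6.14 to 13.5 in DMM libraries (log2 difference -0.37, limma adjusted p = 0.413).

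Rab44, a Rab GTPase that regulates mast cell degranulation in mice, was 47.6 to 54.1 FPKM in sham and 25.4 to 47 in DMM libraries (log2 difference -0.50, SE 0.14, limma adjusted p = 0.235). Adgre4, an adhesion receptor of macrophages, was 6.07 to 7.26 and 2.68 to 5.76 FPKM (-0.47, adjusted p = 0.294). Il2rb, the chain shared by the receptors of interleukins 2 and 15 on lymphocytes, was 4.67 to 5.7 and 2.88 to 4.64 FPKM (-0.33, adjusted p = 0.253). The gap between the sides was narrow for all 3. Padi2, an enzyme that turns arginine into citrulline, had a log2 difference of -0.37 (limma adjusted p = 0.224). Adam1a (-0.28), Zfp983 (-0.20), 9530077C05Rik (-0.19) and Miga1, a mitochondrial outer membrane protein (-0.10), had smaller ones. With Tnf and Mllt3 they complete the 11. The lowest DMM value of Adgre4, Il2rb and Miga1 was that of wild-type replicate 3 and the lowest of Zfp983 and Padi2 that of knockout replicate 1, both among the libraries that stood apart.

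Most genes of the collagen-rich extracellular matrix had higher means after DMM, although 0 of them passed the threshold over all genes. All 18 collagen genes tested had higher means in DMM than in sham bone, with a median log2 difference of 0.63, where 49.2% of all genes tested were higher and their median was -0.003. Col3a1, the fibrillar collagen of loose and healing connective tissue, was 14.6, 21.8, 13.9, 5.11 and 27.8 FPKM in sham replicates 1 to 5. After DMM the wild-type replicates 1 to 5 had 141, 120, 96.6, 38.7 and 88.4 FPKM and the knockout replicates 1 to 5 had 62.8, 22.5, 231, 103 and 85.9 FPKM. All DMM libraries except knockout replicate 2 lay above the highest sham library. The ratio of means was 5.95 and the log2 difference 2.44 (SE 0.47, limma adjusted p = 0.11), with 2.53 in wild-type and 2.34 in knockout bones against the shared sham libraries.

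Among the collagens 13 of 18 had an unadjusted p under 0.05, all of them higher after DMM, and 0 passed at an adjusted p. Col6a2, a chain of the beaded filaments around cells, was 5.41 to 21.1 FPKM in sham and 16 to 52.1 in DMM libraries (log2 difference 1.40, SE 0.28, limma adjusted p = 0.118). Col15a1, of vascular and muscle basement membranes, had a log2 difference of 1.03 (adjusted p = 0.165), and Col8a1, a network collagen of vessel walls, one of 0.49 (adjusted p = 0.159). The median over the collagens was 0.79 in wild-type and 0.47 in knockout bones.

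Of 25 proteoglycan and matrix glycoprotein genes tested, 23 were higher and 2 lower after DMM, with a median log2 difference of 0.70. An unadjusted p under 0.05 was reached by 18 of the higher and 1 of the lower genes. Lum, a small proteoglycan that spaces collagen fibrils, was 39.5, 54.2, 38.5, 21.1 and 64.5 FPKM in sham replicates 1 to 5 and 48.2 to 253 with a median of 144 after DMM. Only knockout replicate 2 lay within the sham range. On the log2 scale the difference was 1.58 (SE 0.32, limma adjusted p = 0.121). Aspn, a related proteoglycan that binds TGF-beta, was 2.43 to 8.62 FPKM in sham and 5.78 to 52.9 in DMM libraries (log2 difference 2.00, SE 0.43, adjusted p = 0.151). Efemp2, which guides elastic fibre assembly, had a log2 difference of 0.50 (adjusted p = 0.156).

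Of 19 collagen processing and cross-linking genes, 16 were higher and 3 lower (median 0.32), and 13 of the higher ones had an unadjusted p under 0.05. Pcolce, the enhancer of the protease that trims procollagen, was 8.23 to 21.6 FPKM in sham and 18.4 to 49.1 in DMM libraries (log2 difference 1.03, SE 0.22, limma adjusted p = 0.145). Loxl2, an oxidase that cross-links collagen, had a log2 difference of 0.88 (adjusted p = 0.207) and P4ha2, a sister of P4ha3, one of 0.64 (adjusted p = 0.207). In Pcolce and Loxl2, 9 of 10 DMM libraries lay above the highest sham library.

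All 15 matrix protease and inhibitor genes tested were higher after DMM (median 0.50), and 10 had an unadjusted p under 0.05. Mmp2, a gelatinase, was 20, 25.9, 16.4, 12 and 26.5 FPKM in sham replicates 1 to 5. After DMM the wild-type replicates 1 to 5 had 76.2, 53, 54.8, 40.8 and 46 FPKM and the knockout replicates 1 to 5 had 37.4, 24.7, 82.7, 37.9 and 46.9 FPKM. Again knockout replicate 2 alone lay within the sham range. The ratio of means was 2.48 and the log2 difference 1.25 (SE 0.24, limma adjusted p = 0.11). Mmp3, stromelysin 1, was 0.263 to 1.88 FPKM in sham and 0.708 to 10.6 with a median of 6.36 after DMM (log2 difference 1.72, SE 0.40, adjusted p = 0.16). Htra1, a secreted serine protease that cuts matrix proteins, was 5.41 to 18.9 and 13.9 to 64.1 FPKM (1.54, SE 0.32, adjusted p = 0.145).

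**Figure D3:**
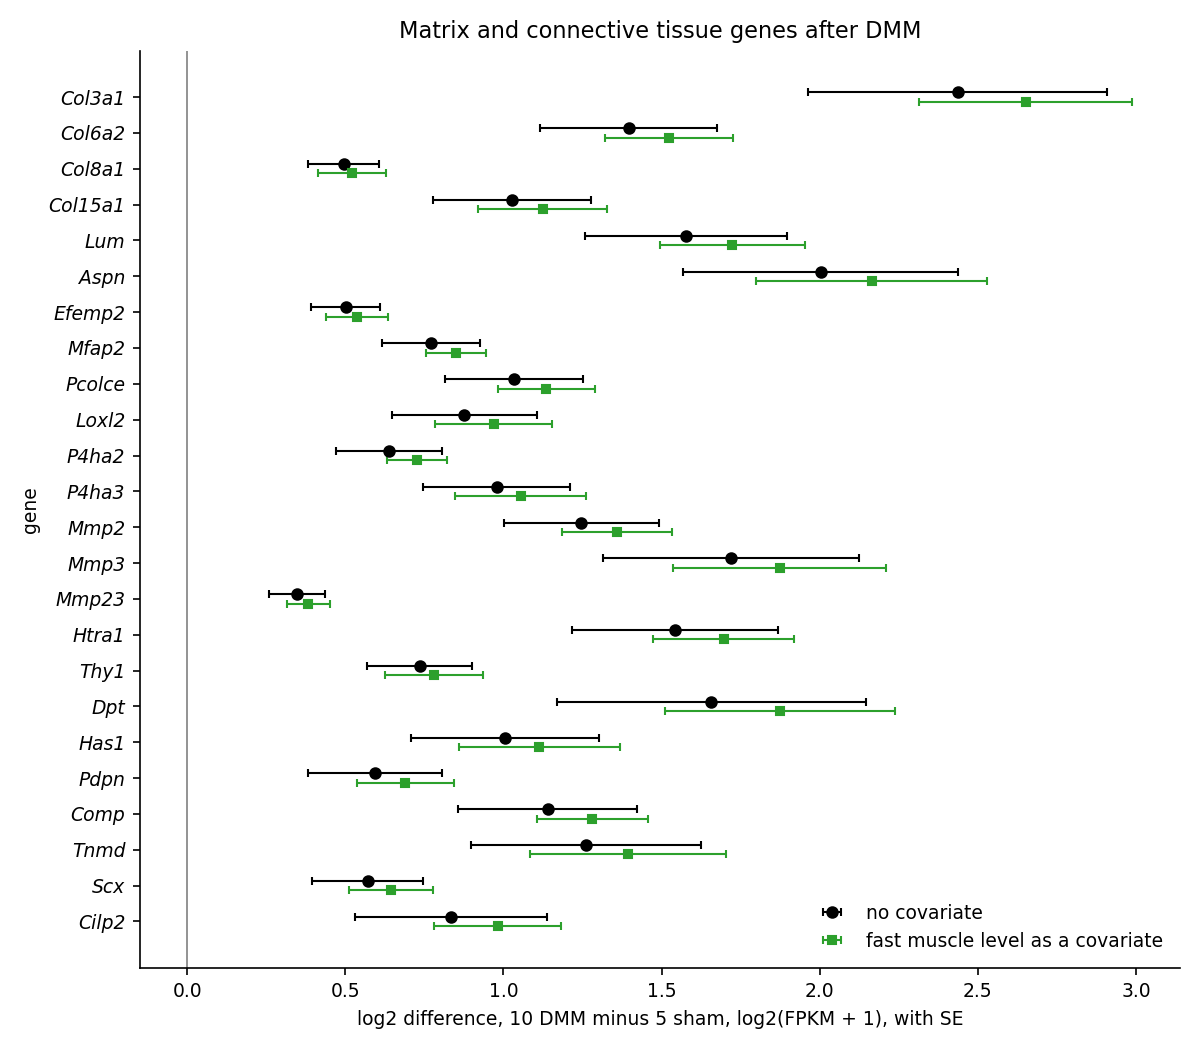
Log2 difference, 10 DMM minus 5 sham libraries, with its SE, for 24 genes of the matrix and connective tissue lists. Each is drawn without a covariate (black) and with a fast muscle covariate, the mean level of 20 genes (green). Up to 4 genes were taken per list, ranked by p without the covariate. All 24 genes lie to the right of 0 in both fits, Col3a1 farthest at 2.44 and 2.65. Picked by p, they do not give the direction of the full lists. Lower means were found for 2 of 25 proteoglycan and glycoprotein, 3 of 19 collagen processing, 1 of 17 fibroblast and 2 of 7 tendon genes. None of the collagens or proteases tested was lower. Has1 and P4ha3 stayed under 1 FPKM in every sham library and passed the expression filter through DMM libraries alone.

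Marker genes of soft connective tissue were higher alongside the matrix genes. Of 17 fibroblast and synovium genes tested, 16 were higher (median 0.42; 10 at an unadjusted p under 0.05), and of 7 tendon and ligament genes 5 were higher (median 0.83; 4 at an unadjusted p under 0.05). The fibroblast list summed to 163.7 to 357 FPKM in sham and 211 to 599 in DMM libraries, 7 of which lay above the highest sham library. The tendon list summed to 89.2 to 341 and 198 to 539 FPKM, with 5 DMM libraries above the sham range. No gene of either list was at 0 in every library, while Has2, Mkx, Kera and Chodl stayed under the expression filter. Dpt, dermatopontin of fibroblasts, had a log2 difference of 1.66 (limma adjusted p = 0.271), Tnmd, tenomodulin of tendon, 1.26 (adjusted p = 0.258), Scx, the tendon transcription factor scleraxis, 0.57 (adjusted p = 0.286) and Comp, a matrix protein of tendon and cartilage, 1.14 (adjusted p = 0.178). The part of attached soft tissue in the matrix differences was not tested.

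Fast muscle RNA also varied between libraries. The 20 fast muscle genes summed to 133 to 4998 FPKM in sham and 290.5 to 3304 in DMM libraries, 0 DMM libraries lying outside the sham range. All 20 had lower means after DMM (median -0.43), 0 of them at an unadjusted p under 0.05, and the median ran from -1.16 to 0.03 over the fits that left out 1 library. Their mean log2 level differed by -0.44 (exact two-sided permutation p = 0.569). With this level as a covariate, 218 genes (1.6%) were higher and 15 (0.11%) lower after DMM at a limma adjusted p under 0.05, among them all 7 genes called without it. The 218 included 8 of 18 collagens, 13 of 25 proteoglycans and glycoproteins, 8 of 15 proteases and inhibitors and 5 of 19 collagen processing genes. With 1 library left out these counts went down to 3, 4, 3 and 2. Col3a1 was then 2.65 higher and Mmp2 1.36 higher on the log2 scale (limma adjusted p = 0.00361 for both). The count of 218 became 50 without sham replicate 4, the library lowest in fast muscle genes. The covariate is itself measured in these libraries.

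Skeletal patterning factors, the homeobox and related genes that lay out limb and joint, had 9 of 10 tested genes higher (median 0.35; 5 at an unadjusted p under 0.05). Msx1, a homeobox repressor, was 0.685 ± 0.229 FPKM (SD, n = 5) in sham bone and 1.22 ± 0.375 (n = 10) after DMM, with a log2 difference of 0.39 (limma adjusted p = 0.165). Pitx1, which specifies the hindlimb, had one of 0.49 (adjusted p = 0.182). Msx1 stayed under 1 FPKM in every sham library and passed the filter through DMM libraries alone. Of the 17 patterning genes listed, 7 stayed under the filter. Wnt signalling genes were higher in 22 of 26 cases (median 0.16; 9 at an unadjusted p under 0.05). The other 11 of the 37 listed stayed under the filter. The list mixes ligands, receptors and inhibitors, so its median gives no direction of signalling. Dact3, an intracellular inhibitor of Wnt signalling, was 0.489 to 0.944 FPKM in sham and 0.93 to 1.91 in DMM libraries (log2 difference 0.51, SE 0.09, adjusted p = 0.11). Like Msx1, Dact3 passed the filter through DMM libraries alone. The secreted modulators Sfrp2 and Dkk3 had differences of 1.18 (adjusted p = 0.178) and 1.35 (adjusted p = 0.182).

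Of 10 genes of the IGF system 7 were higher (median 0.30), including Igfbp6 (1.63, limma adjusted p = 0.224) and Igfbp7 (0.77, adjusted p = 0.195), both secreted binding proteins, while the receptor Igf1r was lower at -0.20 (adjusted p = 0.355). Of 27 TGF-beta and BMP genes 18 were higher (median 0.15), among them Smad6, an inhibitory Smad, at 0.52 (adjusted p = 0.16). Of 19 mechanosensing and YAP/TAZ genes 16 were higher (median 0.14), among them the YAP target Ccn1 at 0.67 (adjusted p = 0.359). Of 21 vessel genes 16 were higher (median 0.10). With 1 library left out the medians ran from 0.03 to 0.17 for vessel, 0.07 to 0.21 for mechanosensing, 0.09 to 0.21 for TGF-beta and BMP and 0.08 to 0.23 for Wnt genes. The vessel genes included Apln, the ligand apelin made by sprouting endothelium, at 0.63 (adjusted p = 0.11), and Emcn, endomucin of capillaries and veins, at 0.38 (adjusted p = 0.159). In Emcn 9 of 10 DMM libraries lay above the highest sham library. Apln stayed under 1 FPKM in every sham library and passed the expression filter through DMM libraries alone.

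Lists of bone cells had smaller medians than the matrix lists. The medians were larger in wild-type than in knockout bones, a difference that was not tested. In the osteoblast and bone matrix list, 15 of 18 genes were higher (median 0.20; 0.37 in wild-type and 0.05 in knockout bones against the shared sham libraries), 4 at an unadjusted p under 0.05. Tnn, tenascin N of periosteum and bone, stood out in this list at 0.365 to 1.89 FPKM in sham and 1.24 to 17.1 in DMM libraries (log2 difference 1.61, SE 0.38, limma adjusted p = 0.16). Alpl, the alkaline phosphatase of mineralization, had a difference of 0.55 (adjusted p = 0.411) and Spp1, osteopontin, one of 0.72 (adjusted p = 0.468). Of 10 osteocyte genes 7 were higher (median 0.21; 0.37 and 0.05). With 1 library left out the median ran from 0.09 to 0.27 for the osteoblast list and from 0.06 to 0.38 for the osteocyte list. Sost, which encodes the Wnt inhibitor sclerostin, was 15.2 to 35.8 FPKM in sham, 18.6 to 27.3 in wild-type DMM and 12.6 to 20.5 in knockout DMM libraries, and its pooled difference was -0.29 (adjusted p = 0.566). The genotype contrast of Sost after DMM was -0.48, with an unadjusted p of 0.0243 and a limma adjusted p of 0.935.

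Of 14 osteoclast genes 9 were higher (median 0.12, and 0.06 to 0.20 with 1 library left out), and 3 had an unadjusted p under 0.05. Ctsk, the main collagen-degrading protease of osteoclasts, was 158 to 307 FPKM in sham and 225 to 592 in DMM libraries (log2 difference 0.67, SE 0.21, limma adjusted p = 0.286). Oscar, an activating receptor of osteoclasts, had a difference of 0.62 (adjusted p = 0.235), with 7 of 10 DMM libraries above the sham range. Of the 17 cartilage genes, 7 were higher and 10 lower (median -0.10). This median ran from -0.24 to 0.15 with 1 library left out and changed sign in 8 of 41 other settings. Without the 3 libraries that stood apart it was 0.11. Col10a1, the collagen of hypertrophic cartilage, had a difference of 1.12 (adjusted p = 0.36) and Col9a1, of hyaline cartilage, one of -0.80 (adjusted p = 0.564).

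Of 18 cytokine and chemokine genes tested, 7 were higher and 11 lower (median -0.04), with Osm called higher and Tnf called lower. This median changed sign in 4 of 41 other settings. Cxcl2, a neutrophil attractant, was 0.427, 0.267, 0.34, 0.708 and 0.402 FPKM in sham replicates 1 to 5 and 0.483 to 4.23 with a median of 1.41 after DMM. Every DMM library but knockout replicate 4 lay above the sham range. DMM minus sham, the log2 difference was 0.94 (SE 0.21, limma adjusted p = 0.159). Cxcl2 stayed under 1 FPKM in every sham library and passed the expression filter through DMM libraries alone. Immediate early genes, which cells switch on within minutes of a stimulus, were higher in 15 of 17 cases (median 0.15), 3 at an unadjusted p under 0.05. Fos, a subunit of AP-1, was 6.07 to 11 FPKM in sham and 10.4 to 31.8 in DMM libraries (log2 difference 1.17, SE 0.22, adjusted p = 0.11), 9 of 10 DMM libraries lying above the sham range. Junb and Jund had smaller differences of 0.28 (adjusted p = 0.358) and 0.25 (adjusted p = 0.539).

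**Figure D4:**
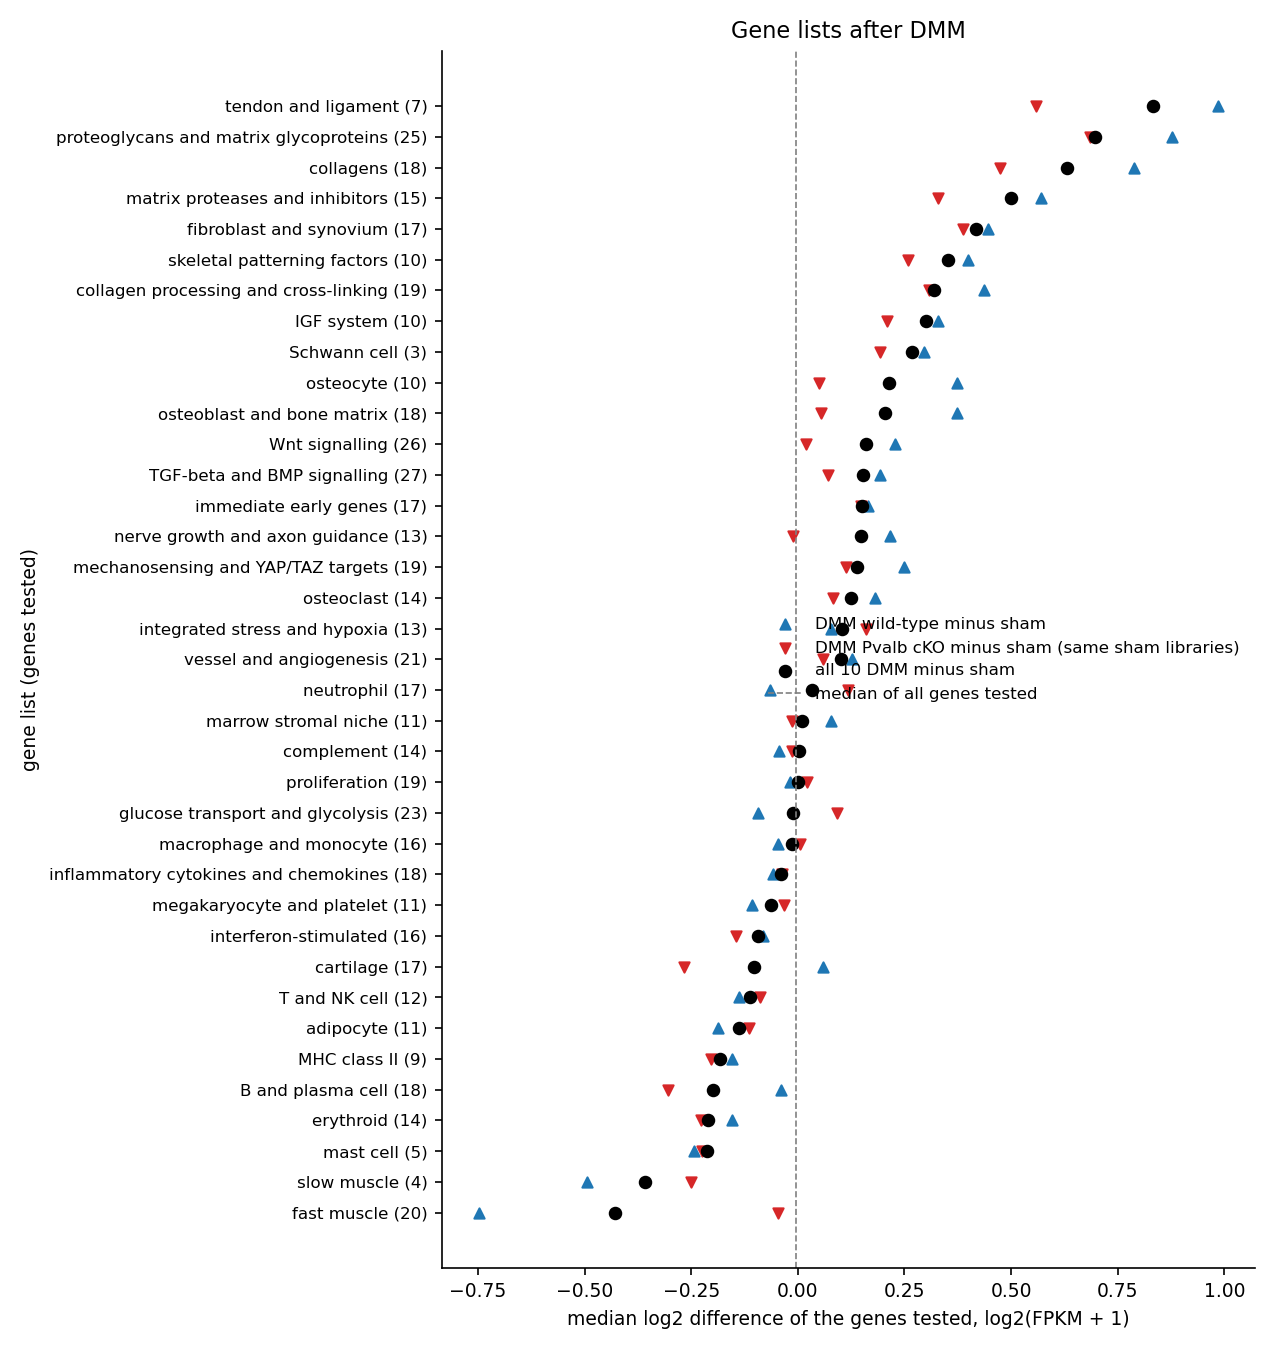
Median log2 difference of the genes tested in each of 37 lists, for all DMM libraries against sham (black) and for wild-type (blue) and knockout (red) DMM libraries against the same 5 sham libraries. The tendon and ligament list lies farthest to the right at 0.83, followed by proteoglycans and glycoproteins at 0.70 and collagens at 0.63, and fast muscle farthest to the left at -0.43; the dashed line is the median of all genes tested.

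Several lists of marrow and immune cells had negative medians. Erythroid genes were lower in 13 of 14 cases (median -0.21; 0.01 without the 3 libraries that stood apart), and the lowest erythroid level was in knockout replicate 1. B and plasma cell genes were lower in 14 of 18 cases (median -0.20), T and NK cell genes in 9 of 12 (median -0.11), MHC class II genes in 7 of 9 (median -0.18) and interferon-stimulated genes in 12 of 16 (median -0.09). Without the 3 libraries that stood apart the median was -0.02 for B and plasma cell genes, -0.08 for MHC class II genes, -0.16 for T and NK cell genes and -0.06 for interferon-stimulated genes. Ighm, the IgM heavy chain, was 403 to 2273 FPKM in sham and 303 to 1186 in DMM libraries, a wide overlap (log2 difference -0.88, limma adjusted p = 0.537). Cd4, the helper T cell co-receptor, had a difference of -0.43 (adjusted p = 0.367) and Cd163, a scavenger receptor of macrophages, one of -0.60 (adjusted p = 0.4). The macrophage and monocyte list was split, with 7 of 16 genes higher and 9 lower, and 2 in each direction at an unadjusted p under 0.05. Macrophage and monocyte, neutrophil, marrow stromal, complement, proliferation and glycolysis lists had medians between -0.01 and 0.03, whose sign changed between settings. Adipocyte genes were lower in 8 of 11 cases (median -0.14), but their median was 0.02 without the 3 libraries that stood apart and 0.03 with array weights. Among them Cyp2e1, a cytochrome P450 of fat and liver, was 4.78, 5.01, 2.14, 0.598 and 6.65 FPKM in sham replicates 1 to 5 and 0.0567 to 1.23 with a median of 0.283 after DMM. Of the DMM libraries 7 lay below the lowest sham library, replicate 4. This gave a log2 difference of -1.58 (SE 0.31, adjusted p = 0.11). Adipoq, which encodes adiponectin, had a difference of 0.31 (adjusted p = 0.311).

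Of the 5 remaining lists, slow muscle had the most negative median: all 4 genes tested had lower means (median -0.36, and -0.55 to -0.08 with 1 library left out). Nerve growth and axon guidance genes had a median of 0.15 with 9 of 13 higher, Schwann cell genes 0.27 over 3 genes, integrated stress and hypoxia genes 0.10 with 10 of 13 higher, and megakaryocyte and platelet genes -0.06 with 3 of 11 higher. None of the genes in these lists passed the threshold.

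**Figure D5:**
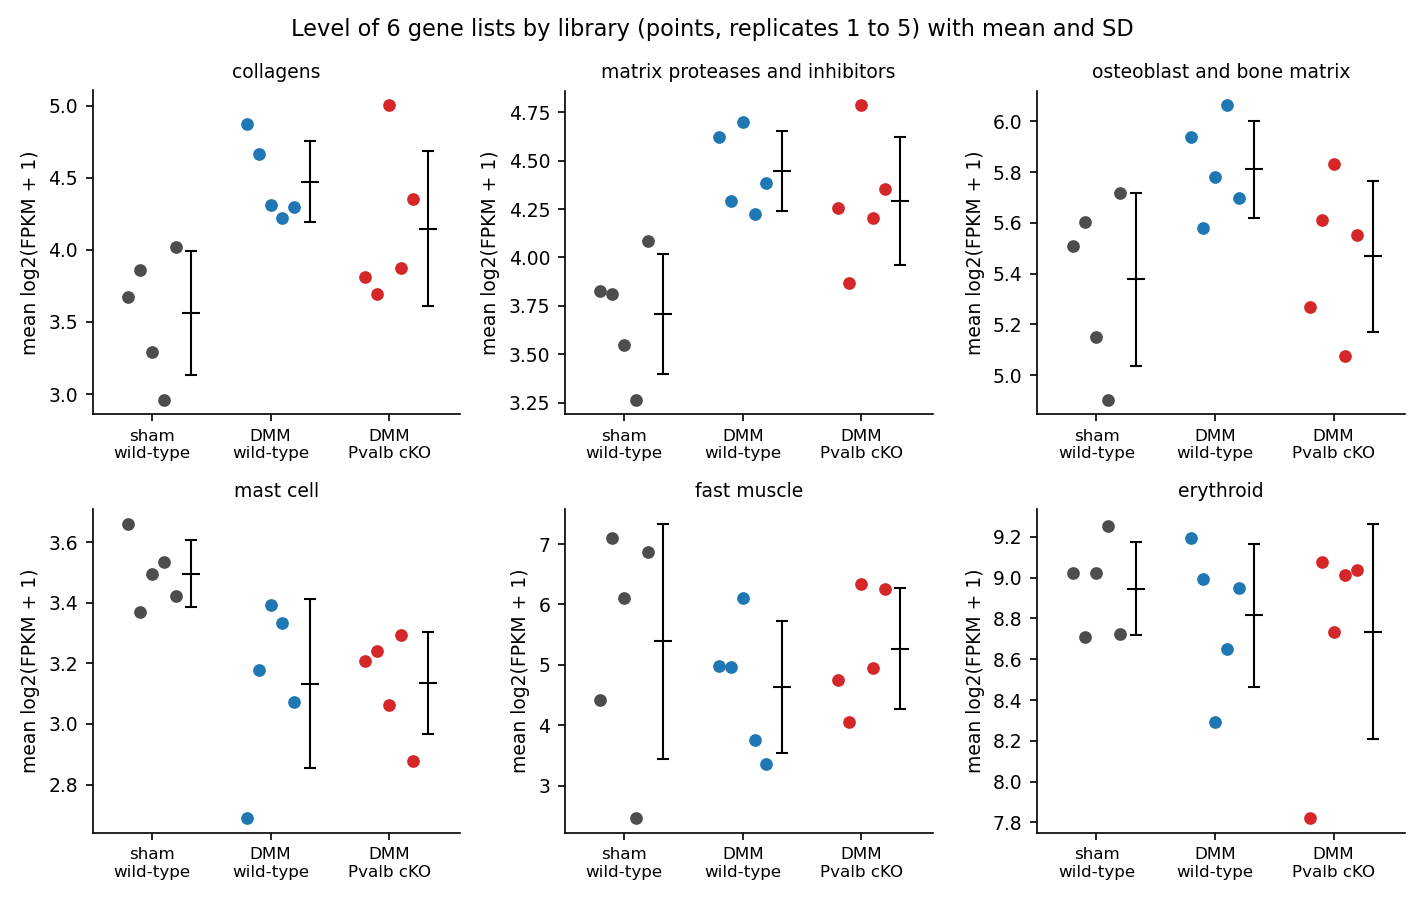
Mean log2(FPKM + 1) of 6 gene lists in each library, by group (points, replicates 1 to 5, left to right), with the mean and SD of each group of 5. Collagen and protease levels are higher in most DMM libraries, mast cell levels lower in most, and fast muscle levels spread from 2.46 to 7.10 in sham and from 3.35 to 6.34 in DMM libraries.

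Set beside each other, the groups gave different counts of single genes. Against the same 5 sham libraries, 0 genes passed in wild-type DMM bones (smallest limma adjusted p 0.142) and 4 rose in knockout DMM bones (smallest adjusted p 5.73e-05). A count past a threshold in one group and not in the other does not show a difference between them. The contrast of the genotypes after DMM called AC117239.2 alone, and 151 genes were higher and 293 lower in knockout bones at an unadjusted p under 0.05.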

How the data were processed

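The values were FPKM per gene and library, as deposited by the authors in 1 table of 55335 gene IDs. Per the labels' protocols, RNA was poly(A)-selected and made into strand-marking libraries. Tools listed in the submitters' processing notes, with no role given, include STAR 2.7.10a, featureCounts 2.0.3, Trimmomatic 0.39 and FastQC 0.11.9, beside build GRCm39. No source used here names the tool that made the FPKM. FPKM are not counts, so log2(FPKM + 1) was tested with limma 3.58.1 (R 4.3.3), with an intensity trend. The fit used means of 3 groups of 5 libraries and compared the mean of both DMM groups with sham. Genes needed at least 1 FPKM in at least 5 libraries, which left 13653, and p-values were adjusted by Benjamini-Hochberg over all of them, with 0.05 as the threshold. Differences on this scale understate the change of genes near 1 FPKM. Depth was unknown, so no counting interval is given.

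Named genes were Pvalb, those past the threshold, up to 10 per direction with the largest difference among genes without overlap, and up to 4 per list by smallest p. Other names are said to have been chosen after their values were seen. The members and the 37 lists were chosen with earlier results of these data known. Of 105 library pairs, 0 held identical values. The fit was tested on simulated data with 200 changed genes. Alternatives covered the pseudocount, the filter, scaling, weights, covariates, a replicate block and leaving out libraries. Figures were drawn with matplotlib 3.10.9.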

Additional observations from a re-analysis of the deposited data

Results flagged for a closer look

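Of 100 groups of libraries examined over 25 named genes, 9 had a single library far from the rest, where independent groups would give about 5 percent. The groups overlap, since all 10 DMM libraries include both DMM groups, and they share libraries across genes. The 9 are therefore not a measure of excess over that rate. In sham bone, Osm was low in replicate 2, at 4.98 FPKM. In knockout DMM bone, Gm45222 was low in replicate 4 at 1.22 FPKM and Mfap2 in replicate 2 at 4.23 FPKM. In wild-type DMM bone, replicate 3 was far below the others for Adgre4 (2.68 FPKM), Il2rb (2.88 FPKM), Zfp983 (1.24 FPKM) and Miga1 (0.846 FPKM), and for Miga1 also among all 10 DMM libraries. Padi2 was low in knockout replicate 1 among all 10, at 4.24 FPKM. Wild-type replicate 3 and knockout replicate 1 were among the 3 libraries that stood apart on the first principal component.

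AC117239.2 differed between the genotypes after DMM by 1.63 on the log2 scale (limma adjusted p = 0.000135), higher in 5 of 5 knockout libraries than in every wild-type library.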

How the results depend on the processing

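The count of 5 genes higher became 3 with a filter of 5 FPKM, 2 with the 10 DMM libraries as 1 group, 60 with array weights, 218 with the fast muscle covariate and 8 without the 3 libraries that stood apart. It ranged from 0 (without sham replicate 2 or 5) to 34 (without knockout replicate 2) when 1 library was left out. The count of 2 lower became 9 with no filter, 0 at 5 FPKM, 10 with weights, 15 with the covariate, 4 without the 3 libraries and 0 to 2 with 1 left out. Same-numbered libraries did not deviate together across all groups: 6 of 15 correlations were over 0.1 (range -0.46 to 0.40) and 1 of 15 was best with its own number. Between sham and wild-type DMM, replicates 1 to 4 correlated at 0.13, 0.103, 0.40 and 0.306, each above the mean with other numbers. Replicate 5 there had -0.237. A replicate block on those shared numbers gave 0 higher and 0 lower calls. Genes without overlap, 34 higher and 11 lower, became 21 and 3 at 5 FPKM, 21 and 17 with median-of-ratios scaling and 61 and 20 without the 3 libraries, with 25 lower under no filter. Leaving out 1 library, where fewer values have to separate, gave 36 to 126 higher (126 without sham replicate 5) and 12 to 39 lower (39 without sham replicate 3). With the covariate, a leave-out chosen after seeing the data gave 50 to 209 higher and 3 to 17 lower, both lowest without sham replicate 4. The genotype count of 1 became 2 with no filter, 4 with weights and 1 to 2 with 1 left out. Atp2a2 (-0.05) turned to 0.00754 with weights and 0.069 without the 3 libraries, and Prtn3 (0.23) to -0.0727 and -0.134. The cause of these changes was not tested, and 15 libraries of unknown absolute depth limit what small differences can be called.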

Other observations

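Gene families outside the lists were counted in the same contrast of all DMM with sham libraries, and 0 of their members passed the threshold. They were counted in the fit of all 15 libraries alone, with no library left out. Of all genes tested, 49.2% had higher means after DMM. At an unadjusted p under 0.05, 6.34% were higher and 3.01% lower. Of 83 cytosolic ribosomal protein genes 81 had higher means after DMM, with a median log2 difference of 0.16 (0.07 in wild-type and 0.24 in knockout bones, against the shared sham libraries). An unadjusted p under 0.05 was reached by 3 of the 83, all higher. Of 38 proteasome subunit genes 36 were higher, with a median of 0.13, and 0 had an unadjusted p under 0.05. Of 61 histone genes 47 were higher, with a median of 0.15. At an unadjusted p under 0.05, 15 histone genes were higher and 1 lower.

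All 13 messenger RNAs and all 17 tRNAs of the mitochondrial genome that passed the expression filter had lower means after DMM. Their medians were -0.35 and -0.49, and 1 of the messenger RNAs and 7 of the tRNAs had an unadjusted p under 0.05. Immunoglobulin variable genes were lower in 60 of 79 heavy chain cases (median -0.23) and 60 of 81 light chain cases (median -0.30). At an unadjusted p under 0.05, 9 heavy chain genes were lower and 3 higher, and 13 light chain genes were lower and 3 higher.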
